A study of Mus musculus with 6 samples.

Results

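The 6 small heat shock proteins Hspb1, Cryab, Hspb6, Hspb8, Hspb2 and Hspb7, the heat shock factors Hsf1 and Hsf2, and the HSF binding protein Hsbp1 were followed in lung endothelial cells (ECs) of mice with and without the lncRNA gene leene. These 9 genes, of 47729 in the annotation, were chosen by family and name, with their differences between the genotypes in these libraries already known from earlier analyses. The differences of the 9 genes are therefore given as a description, with no p-value for any of them. All 9 passed the filter on low counts. The comparison was between 3 libraries of WT mice and 3 libraries of leene-KO mice, all males of 14 weeks on normal chow that had received angiotensin II (AngII), a peptide that raises blood pressure, at 1000 ng/kg/min from an osmotic pump for 2 weeks. The KO was a deletion in the whole animal on the C57BL6 background, not one limited to ECs. No library came from mice without AngII, so the values describe the genotypes under AngII only. The leene transcript was not analysed here, and the genotype rests on the labels. The cells were described as CD31-enriched in the labels and as sorted by CD144 in the study's methods. The labels speak of a pool of cells from 3 mice in each group. Whether each library holds cells of a single mouse or of the pool is not clear from this, and the spread given here is that between libraries, which may be technical.

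Small heat shock proteins are chaperones without ATPase activity that assemble into oligomers, hold unfolding proteins in a soluble state and hand them to the Hsp70 and Hsp90 machinery. Several of them, among them Hspb1 and Cryab, also bind actin and intermediate filaments, and in blood vessels they are best known from smooth muscle and ECs under stress. Hsf1 is the main transcription factor of the heat shock response: chaperones hold it inactive, and on stress it forms trimers that bind repeats of the unit GAA, in alternating orientation, in the promoters of chaperone genes. Hsf2 is a related factor that can form mixed trimers with Hsf1, and Hsbp1 binds the trimerization domain of Hsf1 and limits its activity.

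Promoters of 300 bases, from 250 bases before to 50 after the annotated start, were taken from RefSeq for build GRCm38.p6 and were found for 6 of the 9 genes. Cryab, Hspb2 and Hsf1 had no entry. The shortest HSF-type match searched was a pair of units, GAANNTTC or TTCNNGAA, each of which reads the same on both strands. Hspb1, which of the 9 genes had the largest difference between the genotypes, had a pair of such matches. Its 250 bases before the start, chr5:135887669-135887918 on the plus strand, are shown because both matches (in capitals) lie in them, at -117 to -110 and at -97 to -90 counted from the start.
Hspb1: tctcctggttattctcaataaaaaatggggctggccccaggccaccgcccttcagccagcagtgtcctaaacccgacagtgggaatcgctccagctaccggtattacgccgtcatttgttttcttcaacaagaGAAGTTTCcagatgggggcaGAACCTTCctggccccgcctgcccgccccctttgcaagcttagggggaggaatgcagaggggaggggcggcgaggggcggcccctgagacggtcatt

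The 8 bases of the first match, GAAGTTTC, also stood in a promoter of Hspb6 and in that of Hspb8, and these stretches are shown for comparison, with the match in capitals. In Hspb6 the match lay at -120 to -113 of the second RefSeq promoter, inside the annotated gene, within chr7:30553161-30553208 on the plus strand. In Hspb8 it lay at +3 to +10, within the first transcribed bases, and the stretch is chr5:116422855-116422884 on the minus strand.
Hspb6: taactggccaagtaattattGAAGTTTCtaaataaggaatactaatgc
Hspb8: gctcccagcccagaagccaggaGAAGTTTC

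In all, 3 of the 7 promoters of these 6 genes held a match of 2 units (42.9%), and 4946 of 32851 RefSeq promoters of the same length did (15.1%). Hspb7, Hsf2, Hsbp1 and the first promoter of Hspb6 held none. A run of 3 units in alternating orientation, which overlaps the 2-unit matches, was in none of the 7 promoters of these genes and in 198 of all promoters (0.603%). Of 26 known HSF1 target genes, 21 had 29 promoters in the table, of which 13 held 2 units (44.8%) and 7 held 3 units (24.1%). The octamer GAAGTTTC on either strand was in 398 of the 32851 promoters (1.21%) and, among the targets, in Bag3 only. It was picked out after the matches had been seen. A match is a stretch of letters and not evidence of binding, and the absence of one says only that these letters are not in this window.

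Total counts were 24464324 to 35184063 per library in WT and 26159650 to 29189294 in KO. Of these counts 37.4 to 54.5% fell on mitochondrial genes, with the highest share in WT 3. The scaling factors ran from 0.874 to 1.37, and that of WT 1 was the highest. All 15 endothelial markers, Pecam1 (CD31) and Cdh5 (CD144) among them, were present in every library, with a summed level of 2387 to 4651 CPM (counts scaled to a common library size) in WT and 2863 to 4691 in KO. Markers of other cells were present too. The 5 alveolar type II markers summed to 4934 to 46390 CPM in WT and 36566 to 44951 in KO, and the lowest value was that of WT 1. The 6 airway epithelium markers summed to 15408 to 40472 CPM in WT and 33613 to 56844 in KO, again with the lowest value in WT 1. In such bulk libraries, fewer cells of a type and less RNA per cell cannot be told apart.

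Per length, Cryab was the most abundant of the 6 small heat shock protein transcripts followed here and Hspb7 the least. In WT the levels in CPM per kilobase of exon were 89.1 ± 11.2 for Cryab, 60.4 ± 4.54 for Hsbp1, 26.7 ± 0.226 for Hspb1, 14.7 ± 1.71 for Hspb8 and 7.72 ± 0.836 for Hsf1 (SD, n = 3 libraries). These 5 genes did not overlap with their neighbours in the order. The other 4 lay lower and each overlapped with the next, with Hspb2 at 2.64 ± 1.16, Hsf2 at 1.91 ± 0.158, Hspb6 at 1.68 ± 0.292 and Hspb7 at 1.25 ± 0.718. In KO, Cryab was at 61.4 ± 23.4 and overlapped with Hsbp1 at 55.8 ± 3.76. Hspb8 at 10.2 ± 1.77 and Hspb1 at 9.29 ± 1.71 overlapped as well, whereas Hspb1 lay above Hspb8 in all WT libraries. Hsf1 followed at 7.05 ± 0.298, below every KO library of Hspb1. The remaining KO levels were 2.03 ± 0.264 for Hsf2, 1.54 ± 0.251 for Hspb6, 1.52 ± 0.382 for Hspb2 and 0.483 ± 0.155 for Hspb7, and only Hspb7 did not overlap with the gene next to it. Of the level summed over the 6 small heat shock proteins, Hspb1 made up 18.5, 19.3 and 21.4% in WT 1 to 3 and 16.9, 6.88 and 12% in KO 1 to 3. Cryab made up 63.3 to 69.1% in WT and 66 to 79.1% in KO.

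**Figure D1:**
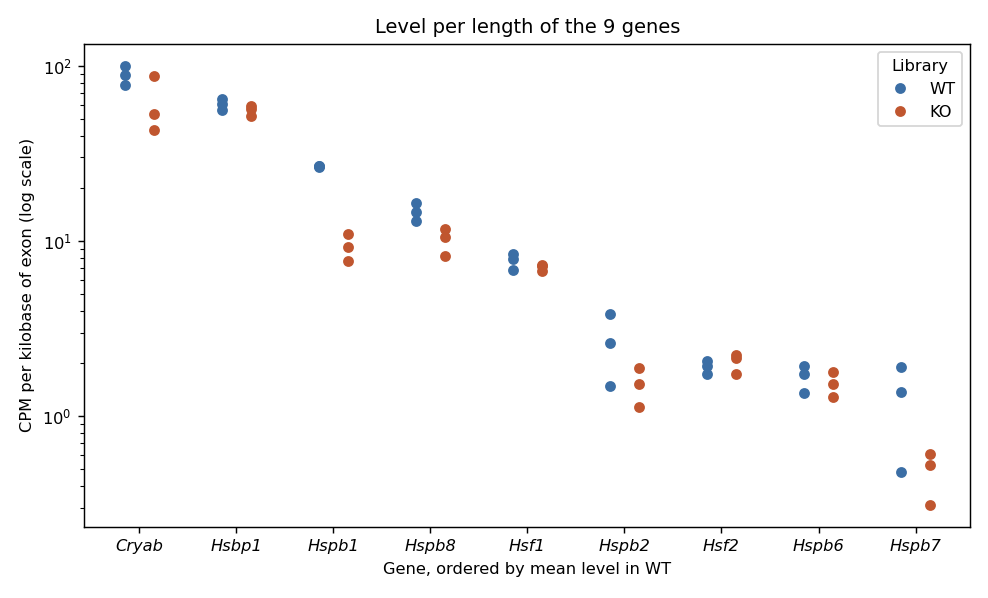
Level per length of the 9 genes, in CPM per kilobase of exon on a log axis, with 1 point for each WT (blue) and KO (orange) library and the genes ordered by their mean in WT. The KO points of Hspb1 (mean 9.29) lie below its WT points (mean 26.7), and the order runs from Cryab at 89.1 to Hspb7 at 1.25 in WT.

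Hspb1 (chr5:135887919-135889563, plus strand) encodes the ubiquitous small heat shock protein that is phosphorylated by MAPKAP kinase 2 and regulates actin filaments. Its level was 27.7, 27.7 and 27.3 CPM in WT 1 to 3 and 11.4, 7.87 and 9.49 CPM in KO 1 to 3, from 583 to 1133 counts in a WT library and 214 to 275 in a KO library. After scaling (factor 1.37 for WT 1), the WT libraries were nearly equal. Their SD was 0.233 CPM, beside 1.76 CPM in KO. At 583 to 1133 counts so small an SD is below the error of counting, and nothing is read from it. Every KO library was below all WT libraries, and the KO mean was 34.8% of the WT mean. The log2 fold change was -1.53 ± 0.16 (KO minus WT, with its standard error). Leaving out 1 library at a time gave -1.69 to -1.43. Hspb1 was the only one of the 9 genes called by the edgeR quasi-likelihood test at an adjusted p under 0.05, a test that called 0.109% of all genes tested (16 of 14625) and 0.0752% as lower in KO. DESeq2 also called Hspb1 alone of the 9 genes. Of the 15470 genes to which DESeq2 gave an adjusted p, it called 1.21% (187), and 0.64% (99) as lower. With edgeR, Hspb1 was no longer called without WT 3 or without any one of the KO libraries. Since the genes were chosen from these families with the differences known, nothing is read from these counts. The summed levels of some other lists also did not overlap between the genotypes. The 8 immediate early genes respond within minutes to handling and stress. Their levels summed to 383 to 438 CPM in WT and 274 to 360 in KO. Of the 8, 7 were lower in KO by their fold change and 1 was higher. All KO libraries lay below all WT libraries for 3 of the 8 (beside 9.2% of all genes tested). None was called by edgeR (4 at an unadjusted p under 0.05) or limma-voom, while DESeq2 called Atf3 as lower. The 6 B cell markers summed to 9.4 to 22.2 CPM in WT and 74.7 to 80.2 in KO, and edgeR called 3 of the 6 as higher in KO, limma-voom 4 and DESeq2 all 6. The 5 T cell markers summed to 4.46 to 10.5 CPM in WT and 11.9 to 16.2 in KO, and none was called by edgeR (2 at an unadjusted p under 0.05), DESeq2 or limma-voom. The part of any of these lists in the levels of Hspb1 and of the HSF1 target genes was not tested.

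**Figure D2:**
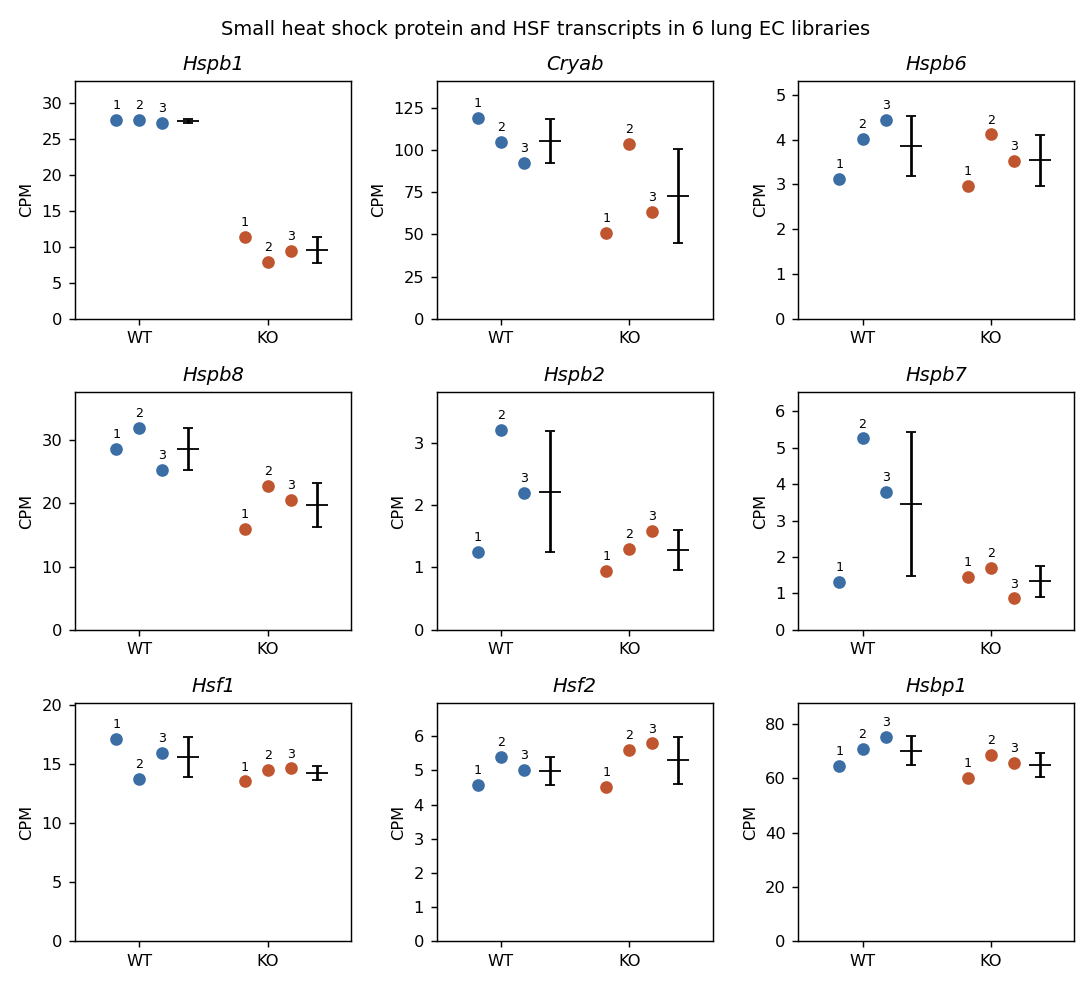
Levels of the 9 genes in CPM in each WT (blue) and KO (orange) library, numbered by replicate, with the mean and SD of the 3 libraries as bars. The KO libraries of Hspb1 (7.87 to 11.4 CPM) and Hspb8 (16 to 22.8 CPM) lie below all WT libraries, and those of the other 7 genes overlap with WT.

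Hspb8 (chr5:116408491-116422864, minus strand) works with Bag3 in the autophagy of damaged proteins. It was at 28.6, 31.9 and 25.3 CPM in WT 1 to 3 and at 16, 22.8 and 20.6 CPM in KO 1 to 3. As for Hspb1, no KO library reached the lowest WT library, and KO 2 (22.8 CPM) and WT 3 (25.3 CPM) were the closest libraries of the 2 genotypes. The log2 fold change was -0.53 ± 0.17, the KO mean was 69.2% of the WT mean, and leaving out a library gave -0.67 to -0.42. It was not called. Hspb1 and Hspb8 were the 2 of 9 genes with all KO libraries below all WT libraries, a pattern that 9.2% of all genes tested showed, and none of the 9 showed the opposite pattern, which 8.59% of all genes showed.

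Cryab (chr9:50752758-50756633, plus strand), or alpha B-crystallin, binds desmin and other filaments and is abundant in muscle and lens. Its level was 119, 105 and 92.6 CPM in WT 1 to 3 and 51, 104 and 63.3 CPM in KO 1 to 3. KO 2 lay within the WT range and the other 2 KO libraries lay below it. The log2 fold change was -0.54 ± 0.26, which became -0.91 without KO 2 and -0.36 without KO 1. Cryab thus had about the same fold change as Hspb8 with a wider spread between the KO libraries.

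Hspb2 (chr9:50751072-50752354, minus strand), a muscle protein that binds the myotonic dystrophy kinase, lies head to head with Cryab, with 403 bases between the genes. It was at 1.25, 3.2 and 2.2 CPM in WT 1 to 3 and at 0.946, 1.29 and 1.59 CPM in KO 1 to 3, from 22 to 109 counts in a library. WT 1 lay among the KO libraries, and the log2 fold change was -0.79 ± 0.42, or -0.44 without WT 2. Although Hspb2 and Cryab are neighbours, the libraries ranked differently for them: WT 1 was the highest of WT for Cryab and the lowest of WT for Hspb2.

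Hspb7 (chr4:141420779-141425311, plus strand), a small heat shock protein of heart and skeletal muscle, was at 1.32, 5.26 and 3.79 CPM in WT 1 to 3 and at 1.46, 1.69 and 0.862 CPM in KO 1 to 3. WT 2 and WT 3 were above all KO libraries, whereas WT 1 was below KO 1 and KO 2. The log2 fold change of -1.36 ± 0.52 came close to that of Hspb1 but had a larger standard error, and ranged from -1.77 without WT 1 to -0.94 without WT 2. Hspb6 (chr7:30552178-30555443, plus strand), a protein of smooth and cardiac muscle that is phosphorylated by protein kinases A and G during relaxation, was at 3.13, 4.02 and 4.45 CPM in WT 1 to 3 and at 2.97, 4.12 and 3.52 CPM in KO 1 to 3. The groups of Hspb6 overlapped and the log2 fold change was -0.12 ± 0.23. Its annotated span overlaps that of Gm38670 on the same strand, and reads assigned to both genes were not counted.

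Several of these genes are known from muscle, and markers of muscle cells were present in the libraries. Cardiac muscle genes are also expressed in the muscle sleeves of the pulmonary veins in mice. The 12 cardiac muscle markers summed to 18.4, 81.5 and 59.3 CPM in WT 1 to 3 and to 32.8, 28.9 and 23.9 CPM in KO 1 to 3. Hspb7 and Hspb2 had the same order of WT libraries, with WT 2 the highest and WT 1 the lowest. Within KO the orders differed: the cardiac markers were highest in KO 1, where Hspb2 was lowest, and Hspb7 was highest in KO 2. In KO minus WT, 11 of the 12 cardiac markers were lower, their median log2 fold change was -0.90, and none had groups that did not overlap or was called by edgeR (1 at an unadjusted p under 0.05), DESeq2 or limma-voom. The 8 smooth muscle markers summed to 299, 249 and 290 CPM in WT 1 to 3 and to 170, 164 and 215 CPM in KO 1 to 3. All 8 were lower in KO by their fold change, with a median of -0.53, and 5 had all KO libraries below all WT libraries (beside 9.2% of all genes tested). None was called by edgeR (4 at an unadjusted p under 0.05) or limma-voom, and DESeq2 called 1, Tagln, as lower. Within the genotypes, Hspb8 was highest in WT 2 and KO 2, the libraries with the lowest smooth muscle sums. Cryab was highest in KO 2 as well, but in WT it was highest in WT 1, the library with the highest smooth muscle sum. No marker of either list was at 0 in any library. The airway epithelium, alveolar type I and alveolar type II markers also had their highest KO sum in KO 2 (56844, 2206 and 44951 CPM), as Cryab did. Their lowest WT sum was in WT 1, where Cryab was the highest of WT. The part of muscle or epithelial cells in the levels of Hspb7, Hspb2, Cryab, Hspb8 and Hspb6 was not tested.

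**Figure D3:**
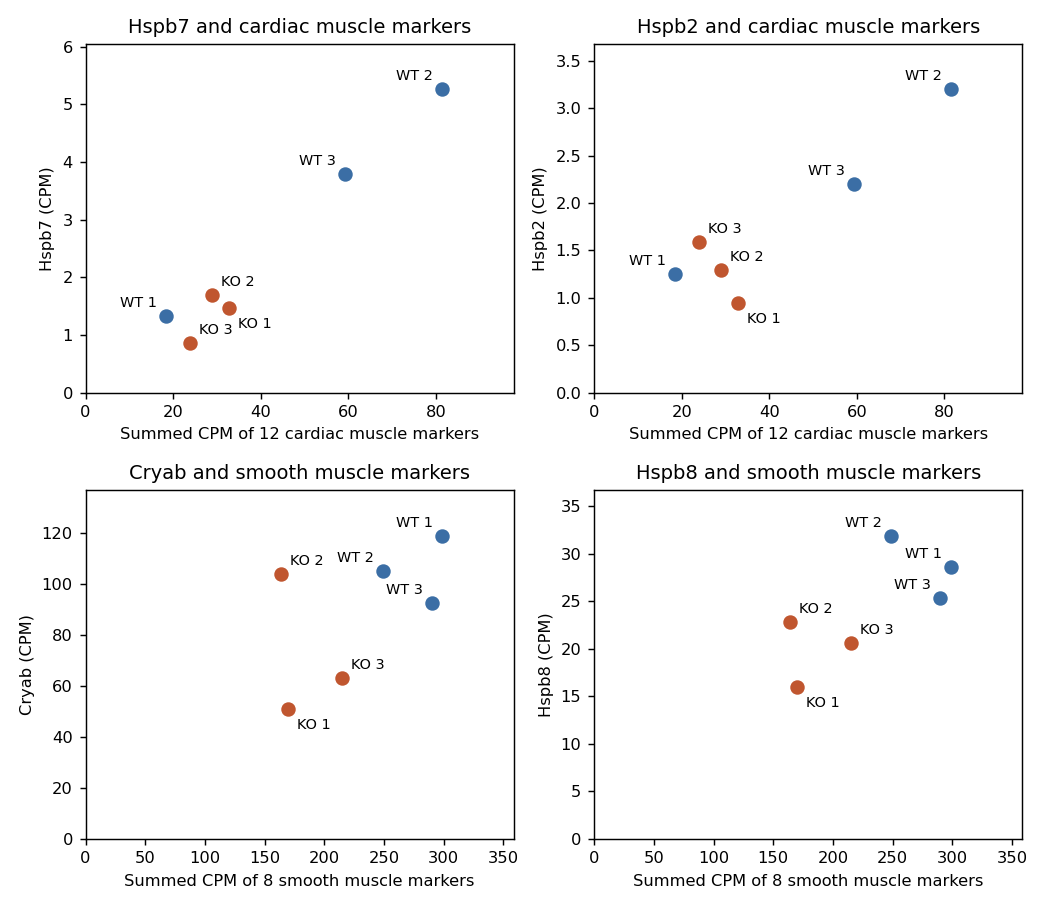
Levels in CPM of Hspb7 and Hspb2 against the summed CPM of 12 cardiac muscle markers, and of Cryab and Hspb8 against the summed CPM of 8 smooth muscle markers, with 1 labelled point per WT (blue) or KO (orange) library. WT 2, with 81.5 CPM of cardiac markers, is the highest library for Hspb7 and Hspb2, and the KO libraries lie at 164 to 215 CPM of smooth muscle markers, below the 249 to 299 CPM of WT.

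The fold changes of the transcription factors and their binding protein were nearer to 0 than that of Hspb1. Hsf1 (chr15:76477445-76500972, plus strand) was at 17.1, 13.7 and 15.9 CPM in WT 1 to 3 and at 13.5, 14.5 and 14.6 CPM in KO 1 to 3. WT 2 lay between the KO libraries, and the log2 fold change was -0.13 ± 0.14. Hsf2 (chr10:57486385-57513133, plus strand) was at 4.58, 5.4 and 5.01 CPM in WT 1 to 3 and at 4.51, 5.59 and 5.79 CPM in KO 1 to 3. It was the only one of the 9 genes with a higher mean in KO, by a log2 fold change of 0.09 ± 0.18, which became -0.06 when libraries were scaled by total counts. Hsbp1 (chr8:119344538-119348927, plus strand) was at 64.7, 70.8 and 75.2 CPM in WT 1 to 3 and at 60.2, 68.8 and 65.6 CPM in KO 1 to 3. Its groups overlapped as well, and the log2 fold change was -0.12 ± 0.13. These are transcript levels, and the trimerization and phosphorylation by which Hsf1 is switched on were not measured.

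Over the 9 genes, 8 log2 fold changes were below 0 and 1 was above, with a median of -0.53. Over all 14625 genes tested, 6714 were below 0 and 7911 above, with a median of 0.03.

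The 26 HSF1 target genes were listed from textbook knowledge with earlier results of these data known. All 26 were lower in KO by their edgeR fold change with all libraries, and the median on the log2 scale was -0.84. With limma-voom, or with edgeR without WT 2, 25 of the 26 were lower. Of the 26, 5 were called as lower by edgeR (19.2%, beside 0.0752% of all genes), 15 by DESeq2, and 19 had all KO libraries below all WT libraries (beside 9.2% of all genes). With 1 library left out, edgeR called 6 of the 26 without WT 1 (24 of all genes), 16 without WT 2 (791) and 2 without WT 3 (13). Without any one of the KO libraries it called 0 of the 26 and 0 of all genes. In those 3 fits, 17 to 18 of the 26 and 986 to 1112 of all genes had an unadjusted p under 0.05. The summed immediate early, smooth muscle, B cell and T cell markers, given with Hspb1 and with the muscle genes, did not overlap between the genotypes either. The 5 are listed here with their edgeR adjusted p over all genes. Hsph1, a nucleotide exchange factor of Hsp70, was at 97.9, 86.2 and 90.9 CPM in WT 1 to 3 and at 17.3, 22.8 and 21 CPM in KO 1 to 3, and fell by 2.17 ± 0.15 on the log2 scale (adjusted p = 0.0099). Hspa1b, an inducible Hsp70, was at 14.2, 22.2 and 19.9 CPM in WT and 1.29, 2.61 and 1.52 CPM in KO and fell by 3.37 ± 0.31 (adjusted p = 0.0188). Its near-identical copy Hspa1a makes this count uncertain. Stip1, which joins Hsp70 to Hsp90, fell by 1.33 ± 0.14 (adjusted p = 0.0276). Ahsa2, related to an activator of the Hsp90 ATPase, fell by 1.22 ± 0.12 (adjusted p = 0.0188), and Chordc1, a partner of Hsp90, by 0.96 ± 0.11 (adjusted p = 0.0404). The smallest difference was that of Sqstm1, an autophagy receptor, at -0.03 ± 0.15 (adjusted p = 0.949). The fold change of Hspb1 lay between those of Hsph1 and Stip1, and those of Cryab and Hspb8 were smaller than that of Chordc1.

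Of the 20 regulators of Hsf1 activity, none was called by edgeR (1 at an unadjusted p under 0.05), DESeq2 or limma-voom, 13 had a fold change below 0 and 7 above, and the median was -0.09. All KO libraries lay below all WT libraries for 5 of them and above for 0 (beside 9.2% and 8.59% of all genes). They ranged from Plk1, a mitotic kinase that phosphorylates Hsf1, at -1.07 ± 0.37 (adjusted p = 0.413) to Stub1, the ubiquitin ligase CHIP, at 0.26 ± 0.17 (adjusted p = 0.61). Of the 15 kinases and binding partners of small heat shock proteins, 14 were tested and had a median of -0.21, with 11 below 0 and 3 above. All KO libraries lay below all WT libraries for 6 of the 14 and above for 1. None was called by edgeR (3 at an unadjusted p under 0.05) or limma-voom, and DESeq2 called 1, the 14-3-3 protein gene Ywhag, as lower. They ran from Flnc, a filamin of muscle, at -0.82 ± 0.46 (adjusted p = 0.561) to Vim, an intermediate filament protein, at 0.15 ± 0.18 (adjusted p = 0.764). Across the genes tested, 1506 had an unadjusted p under 0.05.

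**Figure D4:**
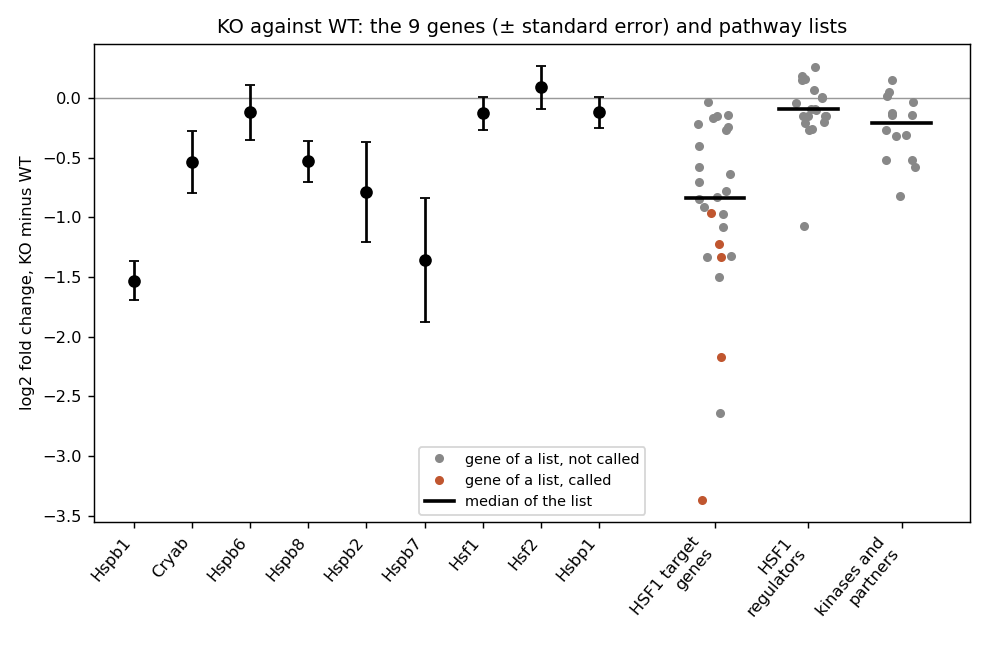
Log2 fold changes (KO minus WT) of the 9 genes with their standard errors, and of the genes of 3 pathway lists with 1 point per gene, the median as a line and genes called by edgeR in orange. All 26 HSF1 target genes lie below 0 with a median of -0.84, and the medians of the regulators (-0.09) and of the kinases and partners (-0.21) lie nearer to 0.

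Of 5 other genes listed with the small heat shock protein family, Hspb11 and Cryaa passed the filter, at log2 fold changes of 0.42 ± 0.37 (adjusted p = 0.689) and 0.97 ± 0.70 (adjusted p = 0.634). Hspb11 bears the symbol of the family but encodes a protein of intraflagellar transport. Hspb3 and Odf1 had 0 counts in all 6 libraries, where a count of 0 allows up to 3 counts, or 0.0734 to 0.14 CPM in a library by counting error alone. Hspb9 had 0 to 6 counts in a library. Of 7 other genes listed with the HSF family, Hspbp1 was at -0.21 ± 0.18 (adjusted p = 0.674) and Hsf4, the factor of the lens, at 0.42 ± 0.36 (adjusted p = 0.68). Hspbp1 encodes a binding protein of Hsp70 and not of HSF. Hsfy2 had 0 counts in all libraries, Hsf3, Hsf5 and Hsf2bp had at most 5 counts in a library, and Hsbp1l1 had 3 to 10.

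The genes whose log2 CPM followed that of a given gene most closely over the 6 libraries are given as a description, since both genotypes and the depth of the libraries are shared by all points. For Hspb1 they were Litaf (Pearson r = 0.998), Klf4 (0.997), Hspa4l (0.996), Cdkn1a (0.994) and Zfp276 (0.993), with 104 of 11734 genes above 0.95. Klf4 is a flow-responsive transcription factor of ECs, Hspa4l is a relative of Hsph1 and a gene of the target list, and Cdkn1a is the cell cycle inhibitor p21. For Cryab they were Rab11fip1 (0.993), Prdx6 (0.982), Zfp365 (0.980), Edf1 (0.979) and Atp5d (0.979), and 28 genes lay above 0.95. For Hsf1 they were Stau1 (0.997), Rbm26 (0.987), Mcm6 (0.985), Psmb7 (0.984) and Tpm2 (0.983). With each genotype centred on its own mean, 0 of these 5 genes stayed among the closest 5 of Hspb1, 1 of those of Cryab (Rab11fip1) and 2 of those of Hsf1 (Stau1 and Tpm2). Between the 9 genes themselves, the highest r were 0.95 for Hspb6 and Hsbp1 and 0.89 for Cryab and Hspb8, and Hspb1 and Hsf1 had an r of 0.48.

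The direction of the 8 fold changes below 0 was the same under the 16 other ways of processing the counts that were tried. Hspb1 ran from -1.70 with scaling by total counts to -1.43 without KO 2. The ranges of Hspb2, Hspb7 and Cryab were wider, and their extremes came from leaving out 1 library. Hsf1 ran from -0.31 with scaling by total counts to -0.06 without WT 1. Hsbp1 ran from -0.27 with scaling by total counts to -0.08 without WT 3. None of the other 8 genes was called under any of the 16.

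**Figure D5:**
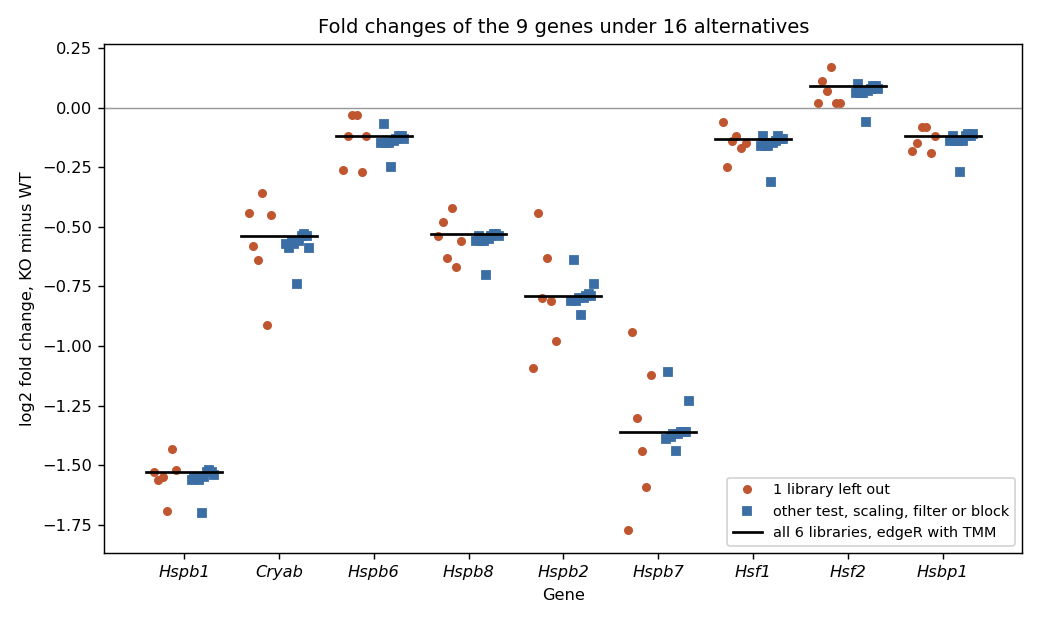
Log2 fold changes (KO minus WT) of the 9 genes with all 6 libraries in edgeR (line), with 1 library left out (circles) and under other tests, scalings and filters (squares). Hspb1 stays between -1.70 and -1.43, Hspb7 spreads from -1.77 to -0.94, and Hsf2 crosses 0 once, at -0.06 with scaling by total counts.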

How the data were processed

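RNA-seq was analysed in 6 libraries of mouse lung ECs, 3 WT and 3 KO, grouped by the genotype in the labels. The authors deposited 1 table of whole-number read counts per library, made per the file headers with featureCounts 2.0.0 from uniquely aligned reads over the exons of Ensembl release 84 (GRCm38), in reverse strand orientation. The submitters' processing notes name bcl2fastq 2.18, STAR 2.5.4b and Subread 2.0.0, and mm10. Reads from near-identical or overlapping genes are therefore undercounted.

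Genes were kept by filterByExpr (14625 of 47729), scaled by TMM and tested in R 4.3.3 with edgeR 4.0.16 (glmQLFit, glmQLFTest, genotype only), with Benjamini-Hochberg adjustment over all genes tested. CPM uses TMM-scaled library sizes, and log2 CPM a prior count of 2. The study used DESeq2, run here (1.42.0) as an alternative beside limma-voom (limma 3.58.1). The script was tested on simulated data. No 2 libraries agreed within sampling noise (lowest chi-square per degree of freedom 40.4). At 3 against 3, an exact permutation test of 1 gene cannot go below 0.1.

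The 9 genes and all lists were chosen with earlier results of these data known. Named genes are the 9, pathway-list genes with an adjusted p under 0.05, the highest and lowest of each pathway list with at least 5 tested genes, and the 5 genes closest to Hspb1, Cryab and Hsf1 among those with a mean log2 CPM above 1. Bag3, Hspa1a, Gm38670, Ywhag, Atf3, Tagln, the genes of the 2 short family lists and the octamer were added after the values were seen.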

Additional observations from a re-analysis of the deposited data

How the results depend on the processing

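The count of genes called (16) moved to 187 with DESeq2, 26 with limma-voom or RLE scaling, 31 with upper-quartile scaling, 123 with total counts and 152 without a filter. Leaving out 1 library gave 0 to 791 genes: 0 without KO 1, KO 2 or KO 3 (992, 986 and 1112 at an unadjusted p under 0.05), 791 without WT 2, 24 without WT 1 and 13 without WT 3. HSF1 target genes called (5) became 15, 8, 10, 9, 9 and 13 in the order DESeq2, limma-voom, RLE, upper-quartile, total counts and no filter, and 0 to 16 with 1 library left out (16 without WT 2, 2 without WT 3, 0 without any KO library). Of the 9 genes, 0 to 1 were called with 1 library left out, and Hspb1 was called in 9 of the 10 other alternatives, all but the replicate block. Those whose groups do not overlap (2) became 5 with total counts and 2 to 5 with 1 library left out, where 11.4% and 25.3 to 41.4% of all genes did not overlap (17.8% with all libraries and TMM). Total counts moved the median of all genes from 0.03 to -0.13, and the share of calls that were lower in KO from 68.8 to 50.4%. That share was 42.8% without a filter, 38.5% without WT 3 and 16.6% without WT 2. The shared replicate numbers carry no pairing in the labels, and the deviations of same-numbered libraries had r of -0.08, 0.22 and 0.01. With the replicate number as a block, edgeR called 0 genes (1776 at an unadjusted p under 0.05), 0 of the 9 genes and 0 HSF1 target genes. In that fit 25 of the 26 HSF1 target genes were lower in KO. WT 1 and WT 3 did not correlate best with their own number. Other settings stayed within 1.5 times these counts. The cause of these moves was not tested. Genes near 1 CPM, such as Hspb2, rest on as few as 22 counts.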
